A study of Homo sapiens with 9 samples.

Results

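The 10 genes described here are ATF4 and the transcription factors and feedback genes that act with it in the integrated stress response: ATF4, DDIT3, ATF3, TRIB3, CEBPB, CEBPG, ATF5, PPP1R15A, CHAC1 and NUPR1. They were chosen by symbol, as genes of the response to amino acid shortage, with earlier results of these data known. Their counts below are therefore not independent of the data. All 10 were found among the 19775 genes that the array reads with a probe set of exactly 1 symbol. The cells were Daudi, a B-cell line from a Burkitt lymphoma. They were infected with a short hairpin RNA against SLC7A5 (Slc7a5-sh), a hairpin against MYC (C-Myc-sh, used in the study as its positive control) or a control hairpin (Ctrl-sh), and all 3 groups were then kept under puromycin for 48 h. Each group had 3 arrays with biological replicate numbers. How many hairpins were used per gene, and whether the replicates were separate infections, is not in the labels, so the p-values measure the spread between these samples.

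SLC7A5 encodes a transporter that brings leucine and other large neutral amino acids into the cell, and MYC is a transcription factor. In the integrated stress response, kinases that sense amino acid shortage, unfolded protein, double-stranded RNA or mitochondrial stress phosphorylate the initiation factor eIF2. General translation then slows, while translation of ATF4 mRNA increases because of upstream open reading frames. ATF4, a bZIP factor that dimerises with C/EBP proteins, activates genes of amino acid supply together with the regulators described here. The array measured mRNA and not the phosphorylation of eIF2 or the amount of ATF4 protein.

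RefSeq promoter windows (GRCh38.p14) around transcript starts were matched for 9 of the 10 genes, NUPR1 being the other. They were searched on both strands for TGATGNAA, the core of the C/EBP-ATF response element, for the cAMP response element TGACGTCA and for the E-box CACGTG, which MYC with its partner MAX can bind. No match overlapped a match of another motif. The response element was present in 3.62% of all 35116 windows (4.46% of genes, as a gene can have several windows) and in windows of CHAC1, ATF3 and CEBPG. TGACGTCA was present in 1.85% of all windows (2.25% of genes) and in that of PPP1R15A. CACGTG was present in 7.26% of all windows (8.77% of genes) and in both windows of ATF4, which overlap and hold the same single site. These 5 stretches are shown because they bear such letters, in capitals, upstream of the transcript start of genes measured below. They lie on the plus strand, which is the strand of each gene, at chr15:40953226-40953305, chr1:212565180-212565259, chr19:33374060-33374089, chr19:48872327-48872406 and chr22:39520440-39520519 in the order printed. In CHAC1 the element is on the opposite strand, so that its reverse complement is printed.
CHAC1: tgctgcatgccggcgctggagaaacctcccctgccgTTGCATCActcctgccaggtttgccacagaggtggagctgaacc
ATF3: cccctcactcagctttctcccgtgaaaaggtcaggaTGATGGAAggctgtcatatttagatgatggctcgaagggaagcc
CEBPG: cgcgcggcgtcTGATGCAAcctgccggcaa
PPP1R15A: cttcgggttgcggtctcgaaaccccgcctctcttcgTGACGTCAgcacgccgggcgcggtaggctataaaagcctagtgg
ATF4: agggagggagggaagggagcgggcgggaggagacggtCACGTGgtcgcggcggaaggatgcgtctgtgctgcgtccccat
Counted from the transcript start, the capitals begin at -209 in CHAC1, -191 in ATF3, -42 in CEBPG, -58 in PPP1R15A and -82 in ATF4. From the other transcript start of ATF4 the same site begins at -85. A match of letters is a description and shows neither binding nor use.

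All values are log2 signals of probe sets, scaled per array by the submitters, so that levels can be compared between arrays and not between genes. Of the 10 genes, 9 had a mean over all arrays that reached the median probe set (5.77 on the log2 scale) and were tested with limma among 11250 genes, a gene being called at a Benjamini-Hochberg adjusted p under 0.05. NUPR1 was below that level. The SLC7A5 log2 signal averaged 11.89 ± 0.06 in Slc7a5-sh, 11.80 ± 0.03 in C-Myc-sh and 12.21 ± 0.15 in Ctrl-sh (SD, n = 3 each), and that of MYC 12.87 ± 0.07, 12.13 ± 0.01 and 13.22 ± 0.05 in the same order, so that each targeted transcript was lower in both knockdowns than in Ctrl-sh. SLC7A5 stood at 80% of Ctrl-sh in Slc7a5-sh and at 75.4% in C-Myc-sh (limma adjusted p = 0.00414 and 0.000186). MYC stood at 78.7% of Ctrl-sh in Slc7a5-sh and at 46.9% in C-Myc-sh (limma adjusted p = 0.000381 and 4.7e-10). Between Slc7a5-sh and C-Myc-sh SLC7A5 did not pass (0.08, limma adjusted p = 0.351). All 9 measured B-cell markers lay above 5.77 on every array, and 0 of 7 measured myeloid markers reached that level on average. Of 12 T and NK cell markers 9 were below it. Their summed linear signal was 10762 to 11388 in Slc7a5-sh, 8689 to 9118 in C-Myc-sh and 6672 to 7871 in Ctrl-sh and came mostly from TRBC1, which had log2 signals of 12.60 to 13.44. The part of that signal in the results below was not tested. Of 10 epithelial and fibroblast markers 5 reached the level, with summed signals of 778 to 896, 759 to 1095 and 783 to 933 in the same order of groups.

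With the hairpin against SLC7A5, 7 of the 9 tested regulators rose over Ctrl-sh and 0 fell, while 25.3% of all tested genes were called, 14.3% as higher and 11.0% as lower. The whole culture was measured, so that more RNA per cell and a changed mix of cells cannot be told apart. CHAC1, ATF3 and TRIB3 had the 3 highest differences, at 1.22, 0.84 and 0.81 on the log2 scale. ATF4 itself, DDIT3, CEBPB and ATF5 rose by 0.37 to 0.47. PPP1R15A (0.49) and CEBPG (0.03) did not pass. The median log2 difference of the 9 genes was 0.47, against 0.03 over all tested genes, and in 8 of the 9 every Slc7a5-sh array lay above every Ctrl-sh array, which held for 21.8% of all tested genes. In 0 of the 9 did every Slc7a5-sh array lie below, against 18.0% of all tested genes.

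With the hairpin against MYC, 7 of the 9 rose over the same Ctrl-sh arrays and 0 fell, while 54.9% of all tested genes were called, 28.7% as higher and 26.2% as lower. DDIT3 and CHAC1 had the highest differences, at 1.66 and 1.59, followed by PPP1R15A, ATF5 and TRIB3 at 1.26, 1.25 and 1.04. ATF3 (0.81) and CEBPB (0.64) rose as well. ATF4 (0.11) and CEBPG (-0.12) did not pass. The median was 1.04, against 0.04 over all tested genes, and the arrays of 7 of the 9 genes lay entirely above those of Ctrl-sh, which held for 33.2% of all tested genes, and those of 0 lay entirely below, against 29.1%.

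The Slc7a5-sh arrays were then set directly against the C-Myc-sh arrays, which tests whether the same gene stood at different levels in the 2 knockdowns. ATF4 was higher in Slc7a5-sh, while DDIT3, ATF5, PPP1R15A and CEBPB were lower in Slc7a5-sh than in C-Myc-sh. These 5 calls compare with 49.5% of all tested genes, 25.1% higher and 24.4% lower. The arrays of 1 regulator lay entirely above and those of 5 entirely below, against 27.7% and 28.8% of all tested genes. ATF3, TRIB3, CEBPG and CHAC1 did not pass.

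**Figure D1:**
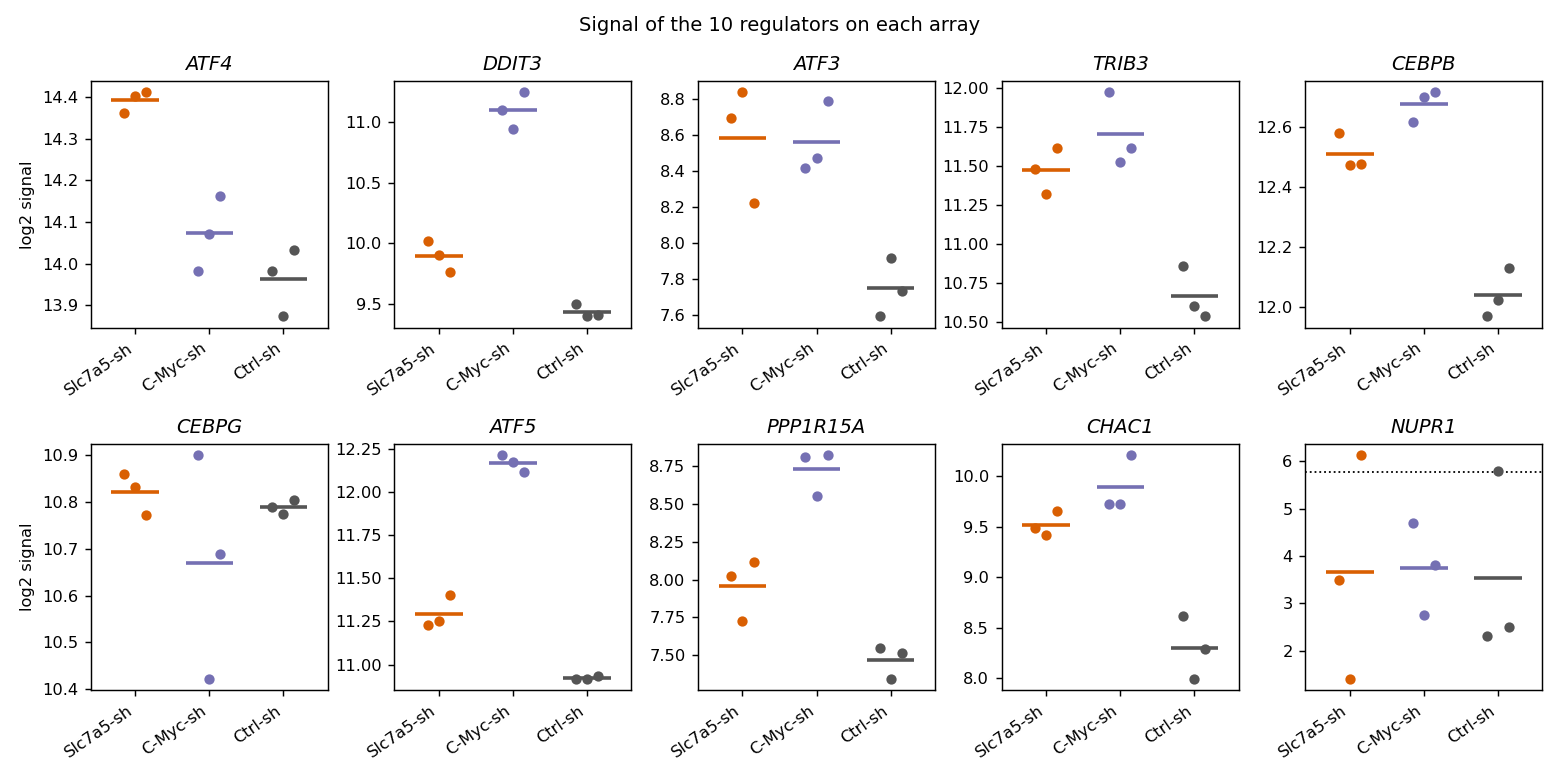
Log2 signal (vertical axis, a separate range for each gene) of the 10 regulators on each of the 9 arrays, by group, with a bar at each group mean of 3 arrays. The ATF4 arrays of Slc7a5-sh, at 14.36 to 14.41, lie above those of both other groups, the DDIT3, ATF5 and PPP1R15A arrays are highest in C-Myc-sh, and the NUPR1 arrays are scattered in every group, with the test level of 5.77 as a dotted line.

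ATF4, the factor at the centre of the response, had log2 signals of 14.36, 14.40 and 14.41 on the Slc7a5-sh arrays, 13.98, 14.07 and 14.16 on the C-Myc-sh arrays, and 13.98, 13.87 and 14.03 on the Ctrl-sh arrays. The 3 Slc7a5-sh arrays lay above all 6 others, while C-Myc-sh and Ctrl-sh overlapped. ATF4 mRNA was 1.35-fold higher in Slc7a5-sh than in Ctrl-sh (95% confidence interval 1.24 to 1.47, limma adjusted p = 0.000102). In C-Myc-sh the difference from Ctrl-sh was 0.11 on the log2 scale (95% confidence interval -0.01 to 0.23, limma adjusted p = 0.118). Slc7a5-sh was above C-Myc-sh by 0.32 (SE 0.06, limma adjusted p = 0.00027). The C-Myc-sh difference of ATF4 depended on the scaling of the arrays: it was 0.31 and passed after quantile normalization (limma adjusted p = 0.000114), where the difference between Slc7a5-sh and C-Myc-sh was 0.12 and no longer passed (limma adjusted p = 0.0559), and it was -0.02 with arrays centred on their medians. It also passed without C-Myc-sh replicate 1 (0.15, limma adjusted p = 0.0367), and it was 0.065 without Ctrl-sh replicate 2 or without C-Myc-sh replicate 3 (limma adjusted p = 0.413 and 0.398).

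CEBPB and CEBPG are bZIP proteins of the C/EBP family that can pair with ATF4 on response elements. CEBPB had log2 signals of 12.58, 12.47 and 12.48 on the Slc7a5-sh arrays, 12.61, 12.70 and 12.71 on the C-Myc-sh arrays, and 11.97, 12.02 and 12.13 on the Ctrl-sh arrays. The 3 groups did not overlap, with C-Myc-sh highest and Ctrl-sh lowest. CEBPB rose 1.38-fold in Slc7a5-sh (limma adjusted p = 7.7e-05) and 1.55-fold in C-Myc-sh (limma adjusted p = 3.95e-07), each over Ctrl-sh. The small difference of Slc7a5-sh from C-Myc-sh (-0.17, SE 0.06, limma adjusted p = 0.032) was lost in 7 of 16 alternatives, among them leaving out Slc7a5-sh replicate 2 (-0.15), Slc7a5-sh replicate 3 (-0.15), C-Myc-sh replicate 2 (-0.16) or C-Myc-sh replicate 3 (-0.15), and it was -0.05 with arrays centred on their medians.

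CEBPG was read by 2 probe sets that differed. The brighter of them, used for the gene, had 10.86, 10.83 and 10.77 on the Slc7a5-sh arrays, 10.90, 10.42 and 10.69 on the C-Myc-sh arrays, and 10.79, 10.77 and 10.80 on the Ctrl-sh arrays. These arrays overlapped between all groups, and the difference from Ctrl-sh was 0.03 in Slc7a5-sh (95% confidence interval -0.18 to 0.25, limma adjusted p = 0.848) and -0.12 in C-Myc-sh (95% confidence interval -0.33 to 0.09, limma adjusted p = 0.334). The other probe set had 10.90, 10.74 and 10.91 on the Slc7a5-sh arrays, 10.22, 10.30 and 10.21 on the C-Myc-sh arrays, and 10.36, 10.44 and 10.35 on the Ctrl-sh arrays, with no overlap between any groups. In a fit over all probe sets, added after the data were seen, this second probe set of CEBPG was higher in Slc7a5-sh than in Ctrl-sh by 0.47 (SE 0.08, limma adjusted p = 0.00122) and higher than in C-Myc-sh by 0.61 (limma adjusted p = 2.98e-05), and did not pass between C-Myc-sh and Ctrl-sh (-0.14, limma adjusted p = 0.173). For the brighter probe set, the CEBPG difference of C-Myc-sh from Ctrl-sh passed without C-Myc-sh replicate 1 (-0.23, limma adjusted p = 0.0476) and with arrays centred on their medians (-0.25), and was 0.0051 without C-Myc-sh replicate 2. Slc7a5-sh was above C-Myc-sh there by 0.15 (limma adjusted p = 0.23) and did not pass, while it was 0.27 and passed without C-Myc-sh replicate 1 (limma adjusted p = 0.0302) and with arrays centred on their medians (limma adjusted p = 0.037). Without C-Myc-sh replicate 2 that difference of CEBPG was 0.027 (limma adjusted p = 0.826). The mean of both CEBPG probe sets was higher in Slc7a5-sh than in C-Myc-sh by 0.38 (limma adjusted p = 0.000812) and than in Ctrl-sh by 0.25 (limma adjusted p = 0.0265).

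DDIT3 (CHOP) is the bZIP factor through which a lasting stress response promotes cell death. It had log2 signals of 10.01, 9.91 and 9.76 on the Slc7a5-sh arrays, 11.10, 10.94 and 11.24 on the C-Myc-sh arrays, and 9.50, 9.40 and 9.41 on the Ctrl-sh arrays. The groups did not overlap. DDIT3 rose 3.17-fold in C-Myc-sh (95% confidence interval 2.73 to 3.67, limma adjusted p = 3.1e-09) and 1.38-fold in Slc7a5-sh (1.19 to 1.60, limma adjusted p = 0.00352), each over Ctrl-sh. Its level in Slc7a5-sh was 43.5% of that in C-Myc-sh (log2 difference -1.20, SE 0.10, limma adjusted p = 1.42e-07).

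ATF5, an ATF4-related factor that also acts in the mitochondrial stress response, showed the same order of groups. It had 11.23, 11.25 and 11.40 on the Slc7a5-sh arrays, 12.21, 12.17 and 12.12 on the C-Myc-sh arrays, and 10.92, 10.92 and 10.94 on the Ctrl-sh arrays. All 3 groups were apart. ATF5 rose 1.29-fold in Slc7a5-sh (limma adjusted p = 0.000814) and 2.37-fold in C-Myc-sh (limma adjusted p = 7.19e-10), each over Ctrl-sh, and Slc7a5-sh was below C-Myc-sh by 0.87 on the log2 scale (SE 0.06, limma adjusted p = 4.66e-08). A second probe set gave differences from Ctrl-sh of 0.43 in Slc7a5-sh (limma adjusted p = 0.085) and 1.35 in C-Myc-sh (limma adjusted p = 9.57e-06). The other 2 probe sets of ATF5 were below the test level. With the mean of all 4, ATF5 was higher than in Ctrl-sh by 1.27 in Slc7a5-sh (limma adjusted p = 0.0392) and by 1.45 in C-Myc-sh (limma adjusted p = 0.00741), and the difference of Slc7a5-sh from C-Myc-sh was -0.18 and did not pass (limma adjusted p = 0.733). All 4 end in _s_at or _x_at, kinds that can also bind related transcripts, so ATF5 could not be tested without such probe sets.

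ATF3, an early stress factor that can repress as well as activate, had 8.70, 8.84 and 8.22 on the Slc7a5-sh arrays, 8.42, 8.47 and 8.79 on the C-Myc-sh arrays, and 7.59, 7.92 and 7.74 on the Ctrl-sh arrays. Every array of either knockdown lay above the Ctrl-sh arrays, and the knockdowns overlapped each other. ATF3 rose 1.79-fold in Slc7a5-sh (limma adjusted p = 0.00647) and 1.76-fold in C-Myc-sh (limma adjusted p = 0.00285), each over Ctrl-sh. The difference between Slc7a5-sh and C-Myc-sh was 0.03 (95% confidence interval -0.40 to 0.45, limma adjusted p = 0.929). These ATF3 calls rest on 1 probe set ending in _s_at. Both were lost with the mean of all 3 probe sets (0.49 in Slc7a5-sh, limma adjusted p = 0.251, and 0.04 in C-Myc-sh, limma adjusted p = 0.921) and when probe sets ending in _s_at or _x_at were left out (limma adjusted p = 0.0632 and 0.377). Fitted on its own, a second probe set gave 0.79 in Slc7a5-sh (limma adjusted p = 0.0745) and 0.32 in C-Myc-sh (limma adjusted p = 0.393), and the remaining one, with a signal near the test level, -0.16 and -1.02 (limma adjusted p = 0.89 and 0.189).

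**Figure D2:**
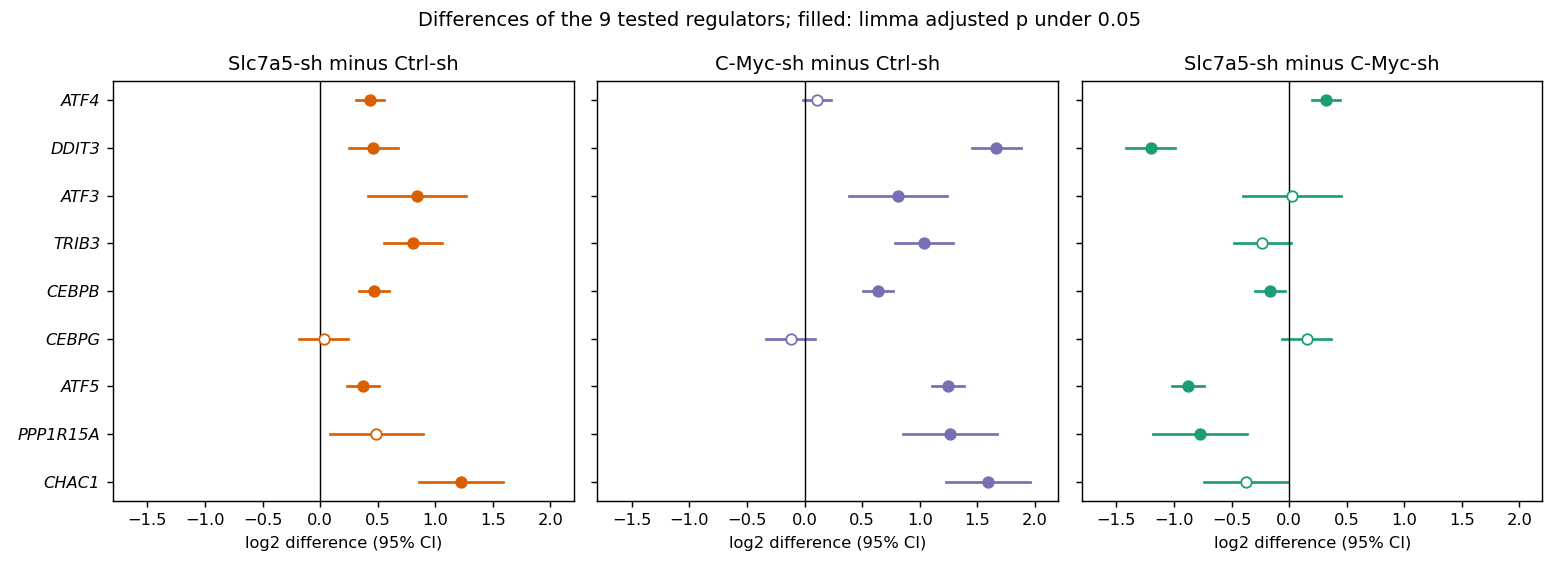
Log2 difference (horizontal axis) of the 9 tested regulators for Slc7a5-sh minus Ctrl-sh, C-Myc-sh minus Ctrl-sh and Slc7a5-sh minus C-Myc-sh, with 95% confidence intervals as lines and filled points for a limma adjusted p under 0.05. ATF4 is called in both panels with Slc7a5-sh and not in C-Myc-sh minus Ctrl-sh, and DDIT3 stands at 0.46, 1.66 and -1.20 across the panels.

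The remaining tested genes are effectors and brakes of the response. TRIB3 is a pseudokinase, induced by ATF4 and DDIT3, that dampens their activity and binds AKT. It had 11.48, 11.32 and 11.61 on the Slc7a5-sh arrays, 11.97, 11.52 and 11.61 on the C-Myc-sh arrays, and 10.86, 10.60 and 10.53 on the Ctrl-sh arrays. The knockdowns overlapped each other and lay above Ctrl-sh. TRIB3 rose 1.75-fold in Slc7a5-sh (limma adjusted p = 0.000191) and 2.05-fold in C-Myc-sh (limma adjusted p = 2.29e-06), each over Ctrl-sh, and its second probe set rose in both as well (0.62 and 0.72, limma adjusted p = 0.032 and 0.00499). Between Slc7a5-sh and C-Myc-sh the TRIB3 difference was -0.23 (95% confidence interval -0.48 to 0.02, limma adjusted p = 0.114), and it passed without C-Myc-sh replicate 2 (-0.32, limma adjusted p = 0.0483) and was -0.097 without C-Myc-sh replicate 1 (limma adjusted p = 0.498).

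PPP1R15A (GADD34) directs protein phosphatase 1 to eIF2 and so reverses the phosphorylation that starts the response. It had 8.02, 7.73 and 8.12 on the Slc7a5-sh arrays, 8.81, 8.56 and 8.82 on the C-Myc-sh arrays, and 7.55, 7.34 and 7.52 on the Ctrl-sh arrays. The groups did not overlap. PPP1R15A rose 2.40-fold in C-Myc-sh over Ctrl-sh (95% confidence interval 1.81 to 3.18, limma adjusted p = 4.49e-05). In Slc7a5-sh the difference of 0.49 (SE 0.19, limma adjusted p = 0.0754) missed the threshold, and it passed without Slc7a5-sh replicate 2 (0.60, limma adjusted p = 0.0494) and with eBayes without trend (limma adjusted p = 0.033). Slc7a5-sh was below C-Myc-sh by 0.77 (SE 0.19, limma adjusted p = 0.00334). A second, dimmer probe set of PPP1R15A gave 0.18 in Slc7a5-sh (limma adjusted p = 0.74) and 1.30 in C-Myc-sh (limma adjusted p = 0.00232), each against Ctrl-sh.

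CHAC1, which breaks down glutathione, had 9.49, 9.41 and 9.66 on the Slc7a5-sh arrays, 9.73, 9.73 and 10.21 on the C-Myc-sh arrays, and 8.61, 7.99 and 8.29 on the Ctrl-sh arrays. The 3 groups did not overlap. CHAC1 rose 2.33-fold in Slc7a5-sh (95% confidence interval 1.81 to 3.01, limma adjusted p = 0.000148) and 3.02-fold in C-Myc-sh (2.34 to 3.89, limma adjusted p = 1.43e-06), each over Ctrl-sh. The Slc7a5-sh level was 77.3% of that in C-Myc-sh (log2 difference -0.37, 95% confidence interval -0.74 to -0.01), which did not pass after adjustment (limma adjusted p = 0.0868). It passed in a fit of only the 6 arrays compared (limma adjusted p = 0.0451), and was -0.21 without C-Myc-sh replicate 3 (limma adjusted p = 0.359).

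NUPR1, a stress-induced chromatin protein, had log2 signals of 3.49, 1.40 and 6.14 on the Slc7a5-sh arrays, 4.70, 2.75 and 3.81 on the C-Myc-sh arrays, and 2.30, 5.80 and 2.50 on the Ctrl-sh arrays. Only 1 Slc7a5-sh array and 1 Ctrl-sh array were above 5.77, and the groups overlapped. NUPR1 was therefore not tested, and no difference could be read at this signal.

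**Figure D3:**
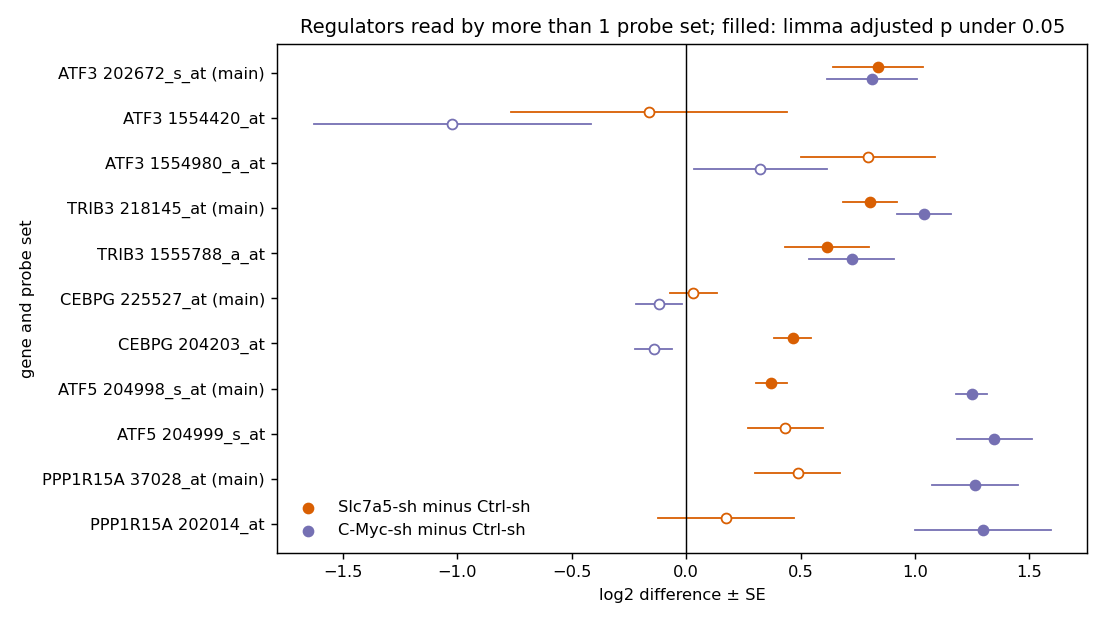
Log2 difference ± SE (horizontal axis) of each tested probe set of the 5 regulators read by more than 1 probe set, for Slc7a5-sh minus Ctrl-sh and C-Myc-sh minus Ctrl-sh, filled for a limma adjusted p under 0.05 in a fit over all probe sets. The CEBPG probe sets stand at 0.03 and 0.47 in Slc7a5-sh. Those of ATF3 differ in sign within both comparisons, while those of CEBPG, TRIB3, ATF5 and PPP1R15A share a sign within each.

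Scaling moved the share of called genes that were higher more in C-Myc-sh than in Slc7a5-sh. Between Slc7a5-sh and Ctrl-sh that share was 54.1% with arrays centred on their medians and 56.5% with the deposited scaling. The number of genes called went the other way, from 2843 to 2365 in Slc7a5-sh and from 6178 to 6023 in C-Myc-sh with centring, each against Ctrl-sh. With arrays centred on their medians, 40.7% of the genes called between C-Myc-sh and Ctrl-sh were higher, against 52.3% with the deposited scaling, and between Slc7a5-sh and C-Myc-sh 63.2% were higher, against 50.7%. DDIT3, ATF3, TRIB3, CEBPB, ATF5, PPP1R15A and CHAC1 rose in C-Myc-sh over Ctrl-sh under the deposited scaling, quantile normalization and median centring. Their differences moved within 0.51 to 1.66 across these settings, and only ATF4 and CEBPG changed call.

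**Figure D4:**
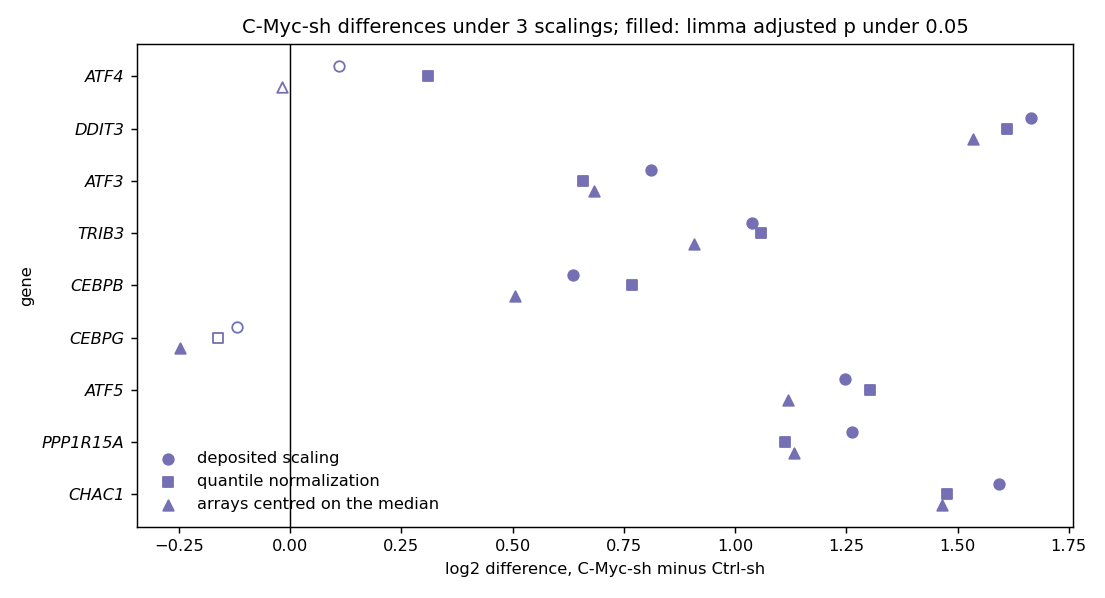
Log2 difference of C-Myc-sh minus Ctrl-sh (horizontal axis) for the 9 tested regulators under the deposited scaling, quantile normalization and median centring, filled for a limma adjusted p under 0.05. ATF4 stands at 0.11, 0.31 and -0.02 under these. CEBPG is filled only under median centring, at -0.25, and the 7 remaining genes stay filled.

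The genes around these regulators were read from lists, which were also written with earlier results of these data known. Of all tested genes, 14.3% were called higher and 11.0% lower in Slc7a5-sh, and 28.7% and 26.2% in C-Myc-sh. Of 8 genes of the eIF2 kinases and their regulators, 1 rose and 1 fell in Slc7a5-sh, and 3 rose and 3 fell in C-Myc-sh, with medians of 0.02 and -0.15. EIF2AK2 (PKR), the kinase activated by double-stranded RNA and itself induced by interferon, rose by 0.44 in Slc7a5-sh (limma adjusted p = 0.000402) and by 2.19 in C-Myc-sh (limma adjusted p = 5.57e-12). EIF2AK4 (GCN2), the kinase that senses uncharged tRNA, changed by -0.42 (limma adjusted p = 0.00445) and -0.40 (limma adjusted p = 0.00194). EIF2AK2 lost its call in Slc7a5-sh with the mean of all probe sets (0.28), as did EIF2AK4 in both knockdowns (-0.49 and -0.25).

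Subunits of eIF2, of its exchange factor eIF2B and of the eIF2 phosphatase were lower in 5 of 12 genes and higher in 1 in Slc7a5-sh, with a median of -0.07, and lower in 10 and higher in 1 in C-Myc-sh, with a median of -0.31. The gene that rose was PPP1R15B (CReP), the constitutively expressed paralog of PPP1R15A, which likewise directs protein phosphatase 1 to eIF2, at 0.57 in Slc7a5-sh (limma adjusted p = 1.42e-05) and 0.91 in C-Myc-sh (limma adjusted p = 5.52e-09). PPP1CA, a catalytic subunit of the same phosphatase, fell by 0.33 in Slc7a5-sh, and EIF2B3 of the exchange factor by 1.13 in C-Myc-sh. Genes of reinitiation on ATF4 mRNA and of ATF4 turnover went in both directions, with 3 of 9 up and 1 down in Slc7a5-sh (median 0.08) and 5 up and 4 down in C-Myc-sh (median 0.19, and 1 up and 4 down with arrays centred on their medians). DENR and MCTS1 form a complex that supports reinitiation. DENR rose by 0.40 and MCTS1 fell by 0.23 in Slc7a5-sh. In C-Myc-sh MCTS1 fell by 0.43 while BTRC, a subunit of the ligase that marks ATF4 for degradation, rose by 0.84. The calls of DENR, MCTS1 and BTRC were lost with the mean of all probe sets. The counts of both lists compare with 14.3% of all tested genes higher and 11.0% lower in Slc7a5-sh. In C-Myc-sh these shares were 28.7% and 26.2%.

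Among 22 tested bZIP factors outside the 10 genes, 4 rose and 5 fell in Slc7a5-sh (median 0.05), and 11 rose and 2 fell in C-Myc-sh (median 0.37). Over all tested genes, 14.3% rose and 11.0% fell in Slc7a5-sh, and 28.7% rose and 26.2% fell in C-Myc-sh. In Slc7a5-sh, NFE2L2 (NRF2), the factor of the antioxidant response, and its relative NFE2L1 rose by 0.44 and 0.57, and JUND and BACH2 fell by 0.51 and 0.26. In C-Myc-sh the AP-1 factor JUN rose by 2.21 and its relative BATF by 3.90, to log2 signals of 10.29 and 10.45 in C-Myc-sh against 8.08 and 6.55 in Ctrl-sh, while ATF7 and BACH2 fell by 1.88 and 1.20. The BATF signals on the Ctrl-sh arrays were 7.16, 6.82 and 5.67, the last below the test level, so the size of its difference is uncertain. NFE2L2 stood at -0.06 in Slc7a5-sh when all its probe sets were averaged, and the calls of JUND there and ATF7 in C-Myc-sh were lost.

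The targets of ATF4 in amino acid synthesis and import differed between the knockdowns. Of 18 tested genes, 8 rose and 1 fell in Slc7a5-sh, while 4 rose and 13 fell in C-Myc-sh. Among all tested genes, 14.3% rose and 11.0% fell in Slc7a5-sh, and 28.7% rose and 26.2% fell in C-Myc-sh. The medians of the 18 genes were 0.29 and -0.33. Directly, 13 of them were higher and 3 lower in Slc7a5-sh than in C-Myc-sh (median 0.69), against 25.1% and 24.4% of all tested genes. The signs of these 3 medians were the same under quantile normalization and median centring. The cystine transporter SLC7A11 and the neutral amino acid transporter SLC38A2 rose in both, by 1.95 and 0.69 in Slc7a5-sh and by 2.22 and 1.24 in C-Myc-sh. ALDH18A1 of proline synthesis fell by 0.26 in Slc7a5-sh. In C-Myc-sh PYCR1 of the same pathway and the branched-chain aminotransferase BCAT1 fell by 1.60 and 1.05.

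ASNS, PHGDH and PSAT1 are named here after their values were seen. Asparagine synthetase ASNS had 13.93, 13.89 and 14.06 on the Slc7a5-sh arrays, 12.94, 13.03 and 13.12 on the C-Myc-sh arrays, and 13.31, 13.37 and 13.33 on the Ctrl-sh arrays. The groups were apart, with Slc7a5-sh above and C-Myc-sh below Ctrl-sh, by 0.62 (limma adjusted p = 8.15e-06) and -0.31 (limma adjusted p = 0.000467). The ASNS call in C-Myc-sh was lost after quantile normalization (-0.11), and both were lost without probe sets ending in _s_at or _x_at (1.11 and -0.25). PHGDH, the first enzyme of serine synthesis, rose by 0.51 in Slc7a5-sh and fell by 0.58 in C-Myc-sh (limma adjusted p = 0.000664 and 3.58e-05). PSAT1, the next enzyme of that path, rose by 0.59 in Slc7a5-sh (limma adjusted p = 2.89e-06). In C-Myc-sh PSAT1 was at -0.16 (limma adjusted p = 0.0125), at 0.02 after quantile normalization, and did not pass without Ctrl-sh replicate 1 (-0.13) or without C-Myc-sh replicate 2 (-0.13).

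Of 11 tested tRNA synthetases that respond to ATF4, 8 rose and 0 fell in Slc7a5-sh (median 0.24, with 5 up and 0 down when arrays were centred on their medians), and 3 rose and 6 fell in C-Myc-sh (median -0.23, with 5 up and 5 down after quantile normalization). With the deposited scaling, 14.3% of all tested genes rose and 11.0% fell in Slc7a5-sh, and 28.7% rose and 26.2% fell in C-Myc-sh. TARS1 rose by 0.59 in Slc7a5-sh, a call lost with the mean of all probe sets (0.31), and WARS1 by 0.77 in C-Myc-sh. YARS1 fell by 0.68 in C-Myc-sh, but stood at 0.66 without probe sets ending in _s_at or _x_at. The C-Myc-sh median was 0.37 in that setting.

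Targets of ATF4 and DDIT3 in stress signalling and cell death, 19 tested, had 12 up and 1 down in Slc7a5-sh (median 0.36) and 11 up and 6 down in C-Myc-sh (median 0.30). All tested genes had 14.3% up and 11.0% down in Slc7a5-sh, and 28.7% up and 26.2% down in C-Myc-sh. INHBE, an inhibin chain, rose by 2.52 in Slc7a5-sh, to 9.03 ± 0.16 in Slc7a5-sh against 6.51 ± 0.60 in Ctrl-sh (SD, n = 3 each; limma adjusted p = 1.82e-05). PMAIP1 (NOXA), a pro-apoptotic BCL2-family protein, rose by 0.64 there, and ERO1A, an oxidase of the endoplasmic reticulum, fell by 0.73. In C-Myc-sh NIBAN1 and GADD45B rose by 2.19 and 2.10, while the translation repressor EIF4EBP1 and the growth factor VEGFA fell by 2.32 and 0.81. The call of ERO1A was lost with the mean of all probe sets (-0.13) and that of GADD45B without probe sets ending in _s_at or _x_at (1.00). SESN2 and STC2 are named after their values were seen. SESN2, a leucine sensor that restrains mTORC1, rose by 0.67 with Slc7a5-sh and 1.35 with C-Myc-sh (limma adjusted p = 0.00388 and 1.55e-06), while the secreted glycoprotein STC2 rose by 1.00 in Slc7a5-sh and was at -0.38 in C-Myc-sh (limma adjusted p = 5.02e-05 and 0.0142; -0.15 and not called in C-Myc-sh with the mean of all probe sets).

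The branches of the endoplasmic reticulum stress response that do not pass through eIF2 had medians near 0. Of 20 tested genes 4 rose and 2 fell in Slc7a5-sh (median 0.04), and 7 rose and 6 fell in C-Myc-sh (median -0.10, and 0.04 after quantile normalization). Over all tested genes, 14.3% rose and 11.0% fell in Slc7a5-sh, and 28.7% rose and 26.2% fell in C-Myc-sh. The chaperone gene DNAJB9 rose by 0.85 with Slc7a5-sh and 1.49 with C-Myc-sh, and XBP1, the factor activated by IRE1, by 0.38 in Slc7a5-sh, a call lost with the mean of all probe sets (0.63). SDF2L1 and MANF, both induced by unfolded protein, fell by 0.30 and 0.31 in Slc7a5-sh and by 1.12 and 1.03 in C-Myc-sh. SEL1L of protein degradation rose by 0.86 in C-Myc-sh. The Slc7a5-sh calls of SDF2L1 and MANF were lost with eBayes without trend. That of SDF2L1 was also lost without Slc7a5-sh replicate 2 (-0.22), and that of MANF without Ctrl-sh replicate 2 (-0.31), Ctrl-sh replicate 3 (-0.30) or Slc7a5-sh replicate 3 (-0.25).

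**Figure D5:**
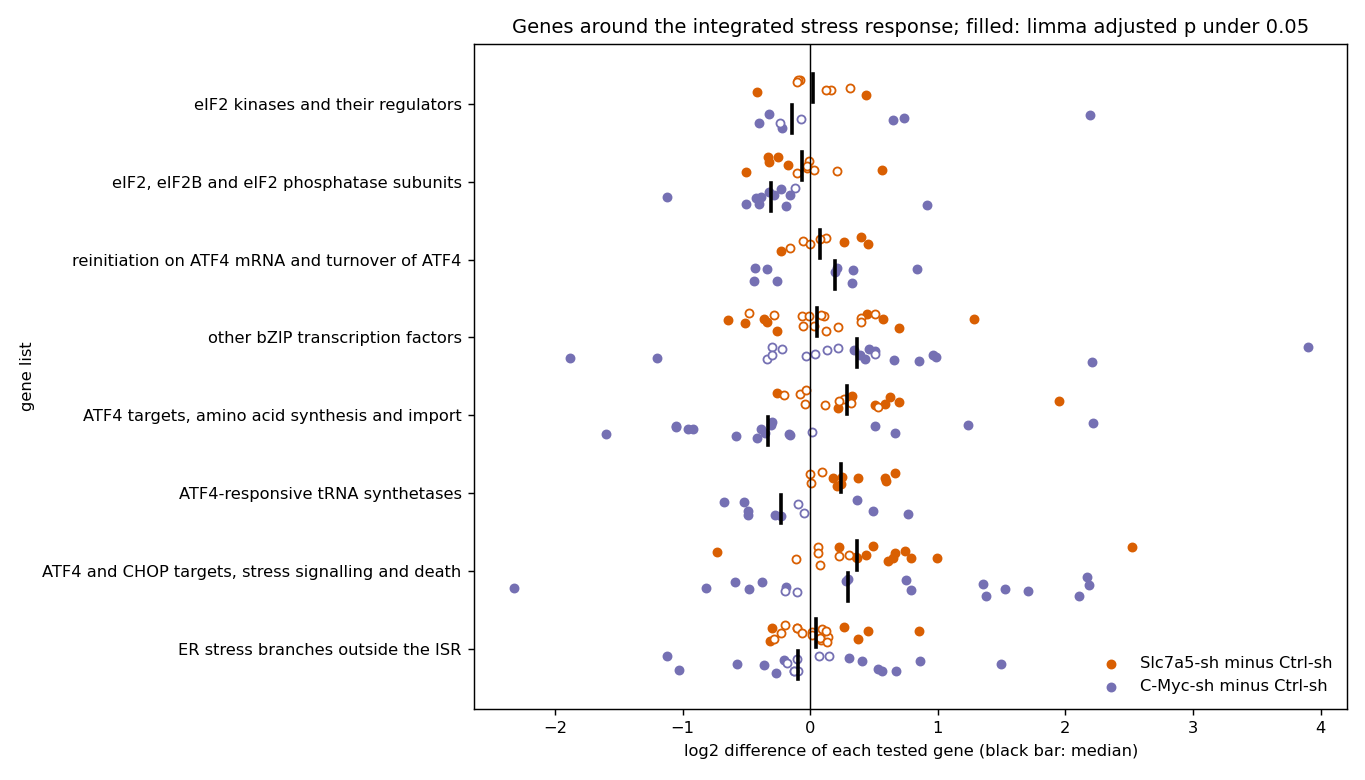
Log2 difference (horizontal axis) of each tested gene of 8 lists around the integrated stress response for Slc7a5-sh minus Ctrl-sh and C-Myc-sh minus Ctrl-sh, filled for a limma adjusted p under 0.05, with a black bar at each median. The medians of the amino acid targets are 0.29 and -0.33 and those of the tRNA synthetases 0.24 and -0.23.

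TGATGNAA, held by a window of 4.46% of all genes, was looked for in the 3 lists of ATF4 targets. As background for the calls, 14.3% of all tested genes rose and 11.0% fell in Slc7a5-sh, and 28.7% rose and 26.2% fell in C-Myc-sh. Of the amino acid targets with a promoter window, 7 held it and 7 did not. In Slc7a5-sh 3 rose and 0 fell of those that held it, and 3 rose and 1 fell of those that did not. In C-Myc-sh 2 rose and 5 fell of those that held it, and 1 rose and 5 fell of those that did not. Of the tRNA synthetases 6 held it and 3 did not, of which 4 and 2 rose in Slc7a5-sh. With the MYC hairpin 2 rose and 2 fell of those that held it, and 1 rose and 2 fell of the others. Of the 14 stress signalling and death genes with a window, 1 held it, HERPUD1, named after its values were seen, which rose in both knockdowns. Of the other 13, 9 rose and 1 fell in Slc7a5-sh, while 7 rose and 4 fell in C-Myc-sh.

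Genes with the profile most like 4 of the regulators were found as the smallest root mean square distance between mean-centred log2 signals over the 9 arrays. Nearest to ATF4 were BCAS2, DNAJC7 and RABGGTB, at 0.05 to 0.06, where the median over all tested genes was 0.37. Nearest to DDIT3 were CTSS, DAPP1 and SERINC1 (0.11 to 0.12), to TRIB3 IRF1, CASP8 and ABHD2 (0.10 to 0.14), and to CEBPB SPTLC1, RC3H1 and MTMR2 (0.05 to 0.06). After quantile normalization 3 of these 12 genes remained among the nearest 3 of their regulator.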

How the data were processed

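Biotin-labelled cRNA was made from total RNA with a kit that primes at the 3' end, per the labels' protocols, and read on Affymetrix arrays. The authors deposited log2 signals of 54613 probe sets on each array, made with MAS5 per the submitters' processing notes (version and settings not given in the sources used here). The values themselves gave the base of the logarithm, as the linear mean trimmed by 2% at each end was 497 on every array, so signals are relative within an array. Array medians were 6.05 to 6.26, and arrays of 1 group correlated at 0.972 to 0.977 across genes. The number of arrays limits the precision.

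In the platform annotation 41091 probe sets had 1 symbol, of which 41037 had an Entrez ID found in RefSeq, while 1801 had several symbols and 11721 had none. The probe set with the highest mean over 9 arrays stood for a gene, and genes whose mean reached the median probe set were tested. R 4.3.3 and limma 3.58.1 were used: 3 group means over 9 arrays, eBayes with trend, two-sided tests, Benjamini-Hochberg adjustment over 11250 genes. The code was tested on simulated data. The 10 genes and the lists, written from general knowledge, were chosen with earlier results of these data known. Of each list, the text names the called gene with the smallest p per direction and knockdown, 2 in lists of over 15 genes, and others as said. Groups came from the sample titles. Arrays with the same replicate number did not deviate together (correlations of -0.02 to 0.02 over 9 pairs), so no block was used. The closing section gives the alternatives.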

Additional observations from a re-analysis of the deposited data

How the results depend on the processing

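The 27 results of the 9 tested regulators were each recomputed under 15 or 16 alternatives, giving 423 values. Direction and side of the threshold were kept in 392, the call was lost in 13 and gained in 12, and the sign turned in 6, with the test passed in 0 of these 6. The 14 results that held in each alternative that could be run were those of DDIT3 in all 3 comparisons, of CEBPB, TRIB3, CHAC1 and ATF5 in each knockdown against Ctrl-sh, of ATF4 in Slc7a5-sh, and of PPP1R15A in C-Myc-sh against Ctrl-sh and in Slc7a5-sh against C-Myc-sh. Fits of single probe sets are not among these alternatives. In such a fit the second ATF5 probe set stood at 0.43 in Slc7a5-sh against Ctrl-sh and did not pass (limma adjusted p = 0.085). For ATF5 leaving out probe sets ending in _s_at or _x_at could not be run. Its value in Slc7a5-sh was 1.27 with all probe sets averaged, an average that includes probe sets below the test level. The turned values were those of ATF4 in C-Myc-sh with arrays centred on their medians (-0.019), of CEBPG in C-Myc-sh without C-Myc-sh replicate 2 (0.0051, within -0.23 to 0.0051 over the arrays left out), and of ATF3 in Slc7a5-sh against C-Myc-sh, which ranged from -0.10 to 0.21 over the arrays left out. Fitted on its own, a choice made after seeing the data, the dimmest ATF3 probe set stood at -0.16 for Slc7a5-sh and -1.02 for C-Myc-sh. Among genes named from lists, NFE2L2 in Slc7a5-sh turned with the mean of all probe sets (-0.065), PSAT1 in C-Myc-sh after quantile normalization (0.023) and YARS1 in C-Myc-sh without probe sets ending in _s_at or _x_at (0.66, limma adjusted p = 0.0176). The number of genes called between Slc7a5-sh and Ctrl-sh was 2843, and averaging all probe sets of a gene gave 1581. Without single arrays 7 to 8 of the 9 tested regulators were called for Slc7a5-sh, 7 to 9 for C-Myc-sh and 4 to 6 between the knockdowns. Of all 11250 tested genes, 2246 to 2528, 5695 to 5817 and 5005 to 5259 were called in the same order. The replicate block gave 2775, 6147 and 5526 called genes in the 3 comparisons and changed the call of 0 of the 27 regulator results. The causes were not tested. Signals below 5.77, such as those of NUPR1, are too scattered to compare.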
